A study of Mus musculus with 18 samples.

Results

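The Reg genes encode small secreted C-type lectins, and 6 of them (Reg1, Reg2, Reg3a, Reg3b, Reg3g and Reg4) were read out by name from a table of 24062 genes in 18 mouse intestinal tumours. Reg2 was almost without counts, and the other 5 members passed the filter on low counts that left 14271 genes for testing. RNA came from 1 tumour of each of 18 male C57BL/6 mice. All mice, the controls included, carried ApcMin/+, a truncating allele of the tumour suppressor Apc that gives rise to intestinal adenomas. They differed in Macrod2, which encodes an ADP-ribosyl hydrolase: 6 mice were Macrod2+/+ (wt), 6 were Macrod2-/+ (het) and 6 were Macrod2-/- (hom). The labels name the large intestine as the site of every tumour but het 4, which came from the small intestine and was kept out of the tests, leaving 6 wt, 5 het and 6 hom tumours. Neither the age of the mice nor a cell type restricting the Macrod2 alleles is given in the sources used here. The question behind the series was whether tumours of different Macrod2 genotype differ in mRNA.

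Reg lectins are made by epithelial and acinar cells and are released into the lumen. REG3γ and REG3β, the products of Reg3g and Reg3b, are gut antimicrobial lectins: REG3γ binds peptidoglycan and keeps Gram-positive bacteria away from the epithelial surface, and REG3β acts on Gram-negative species. In the gut their transcription is switched on by microbial signals through MyD88 and by cytokines such as interleukin-22 through STAT3. Reg1 and Reg2 are best known from the exocrine pancreas and from regenerating tissue, and Reg4 marks secretory and enteroendocrine cells of the intestine.

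5 of the 6 members lie side by side. In the GENCODE M21 annotation of GRCm38, Reg3b (chr6:78370657-78373466, plus strand), Reg3a (chr6:78380709-78383827, plus strand), Reg2 (chr6:78395623-78408106, plus strand), Reg1 (chr6:78422711-78428667, plus strand) and Reg3g (chr6:78466269-78468872, minus strand) fall within 98.2 kb. The only other annotated gene in that span is the sixth family member there, Reg3d. Reg4 stands apart, on another chromosome, at chr3:98222156-98236748 on the plus strand. No annotated gene overlaps any of the members. Between the first-numbered annotated transcripts of the family genes, the longest run of identical bases is 35, shared by Reg3b and Reg3g. Other transcripts of these genes were not compared. How reads mapping to several genes were counted is not given in the sources used here.

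The sequences just upstream of the RefSeq start sites are printed for the 3 Reg3 genes, because these members varied together over the tumours in part, and for Reg4, which did not follow them. All 6 members matched an entry of the RefSeq promoter table (GRCm38.p6). Each line gives the 150 bases before the RefSeq start site, 5′ to 3′ on the gene's own strand. For Reg3b that start lies inside the GENCODE gene, so its window falls within the GENCODE span given above. The Reg3a and Reg4 windows end at the GENCODE start, and the Reg3g window ends next to it. Capitals mark runs of at least 9 bases that also occur in the window of another family gene.
Reg3b, chr6:78370735-78370884, plus strand: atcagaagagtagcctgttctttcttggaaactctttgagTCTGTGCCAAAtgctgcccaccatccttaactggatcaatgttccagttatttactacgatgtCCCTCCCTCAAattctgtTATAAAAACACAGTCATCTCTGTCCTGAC
Reg3g, chr6:78468875-78469024, minus strand: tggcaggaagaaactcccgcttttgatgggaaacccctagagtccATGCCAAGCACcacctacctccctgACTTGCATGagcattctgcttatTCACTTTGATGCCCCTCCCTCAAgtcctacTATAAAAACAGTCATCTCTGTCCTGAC
Reg3a, chr6:78380559-78380708, plus strand: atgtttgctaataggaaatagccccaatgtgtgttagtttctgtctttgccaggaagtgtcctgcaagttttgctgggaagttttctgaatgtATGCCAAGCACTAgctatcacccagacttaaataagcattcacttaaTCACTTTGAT
Reg4, chr3:98222006-98222155, plus strand: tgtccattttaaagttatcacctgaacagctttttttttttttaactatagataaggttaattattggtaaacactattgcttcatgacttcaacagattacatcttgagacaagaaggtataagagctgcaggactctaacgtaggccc
The Reg3b and Reg3g windows end in the same 20 bases, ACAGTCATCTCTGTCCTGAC, a run found in 2 of 32851 promoter windows of that length. Reg3a shares 11 bases with Reg3g (ATGCCAAGCAC) and no more than 7 with Reg3b, and the Reg4 window has no capitals. These 11 bases begin at -57 relative to the start in Reg3a and at -105 in Reg3g, so the 2 windows are offset. Another shared run, TCACTTTGAT, ends the Reg3a window but lies upstream of TATAAA in the Reg3g window. Sequence beyond the annotated Reg3a start was not searched, which limits what its window can share with Reg3b and Reg3g. The letters TATAAA, searched on both strands, begin 29 bases before the start of Reg3b, 27 before Reg3g and 30 before Reg1 and Reg2, and are absent from the windows of Reg3a and Reg4. They occur in 7.57% of all windows. The letters TTCNNNGAA, a form bound by STAT factors, occur in the Reg3b window, 129 bases before the start, in no other member's window and in 4.09% of all windows. These are matches of letters, not measured binding sites.

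The libraries held 13529204 to 20857918 counts. Values are given as CPM, counts scaled to library size with factors from the trimmed mean of M values (TMM), so 1 read was worth at most 0.0925 CPM. Macrod2 followed the labels, with 2.96 to 4.55 CPM in wt, 1.63 to 3.44 in het and 0 to 0.409 in hom tumours, and was lowest in hom. Ribosomal Rn45s took 27.0% of the counts of wt 3 and at most 0.725% elsewhere. 2 of the wt tumours stood apart in markers of intestinal site. Gata4, a transcription factor of the proximal small intestine, reached 171 CPM in wt 1, 175 in wt 2 and 164 in the small intestinal het 4, against 0.282 to 46.4 in the other 15 tumours. Fabp6, the ileal bile acid binding protein, had 2.06, 1.69 and 2.26 CPM in the same 3 tumours against 11.5 to 1648. Both wt 1 and wt 2 are labelled as large intestinal. The members' fold changes are therefore also given without them, and the correlations were computed over the other 15. The colonic carbonic anhydrase gene Car1 reached no more than 6.60 CPM in any of the 15 (median 0.153), while the epithelial genes Epcam and Cdx2 were present throughout (2428 to 3737 and 73.2 to 154 CPM over the tumours). Over the 15, 17 small intestinal epithelial markers summed to a median of 8755 CPM and 9 colonic surface markers to 496. The site of these 15 is thus given as labelled and was not tested. In bulk RNA, fewer cells of a type and less RNA per cell cannot be told apart.

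Reg3b had the highest length-scaled level of the members in 16 of 17 tumours. In wt tumours it ranged from 211 CPM (wt 2) through a median of 1184 to 2825 (wt 3). The het tumours held 1880, 3631, 3878, 2028 and 508 CPM for het 1, 2, 3, 5 and 6. In hom tumours the lowest was 363 (hom 6), the median 1070 and the highest 6631 (hom 5). High and low tumours occurred in every genotype and the 3 ranges overlapped. Means were 1280 ± 1089 (SD, n = 6) in wt, 2385 ± 1387 (n = 5) in het and 2006 ± 2360 (n = 6) in hom, so the SD exceeded the mean in hom and was below it in wt and het. Hom 5 alone set the hom mean: without it the other hom tumours averaged 1081 ± 738 (n = 5). In hom 5, 0.687% of all counts were Reg3b.

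Reg3g was high and low in much the same tumours as Reg3b. It ranged from 138 CPM (wt 2) through a median of 601 to 1125 (wt 6) in wt. The het values were 796, 1148, 1028, 473 and 459 CPM for het 1, 2, 3, 5 and 6. The hom range was 163 (hom 6) to 2256 (hom 5) with a median of 512. The ranges overlapped again, and the same tumours, wt 2, het 6 and hom 6, were the lowest of their genotypes for both genes. Group means were 592 ± 376 (SD, n = 6) in wt, 781 ± 314 (n = 5) in het and 767 ± 788 (n = 6) in hom.

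Reg3a, the third Reg3 lectin of the list, had its extremes in the wt group. In wt tumours it ran from 1.49 CPM (wt 4) through a median of 26.1 to 180 (wt 1), and wt 2 held 132. The het tumours had 24.8, 39.6, 42.7, 52.4 and 8.40 CPM for het 1, 2, 3, 5 and 6. Hom tumours lay between 15.6 (hom 3) and 39.6 (hom 4), with a median of 26.7. In wt, the tumours carrying proximal small intestinal markers were at the top and wt 4 and wt 5 (2.14 CPM) at the bottom. The wt mean of 61.2 ± 75.7 (SD, n = 6) became 13.9 ± 14.9 (n = 4) without wt 1 and wt 2, against 33.6 ± 17.2 (n = 5) in het and 28.5 ± 8.53 (n = 6) in hom.

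Reg1, the founding regenerating protein of pancreas and stomach, was counted in every tumour. In wt it ranged from 4.996 CPM (wt 3) through a median of 14.8 to 76.4 (wt 2), and wt 1 held 33.2. The het tumours had 8.05, 5.95, 10.5, 6.21 and 21.8 CPM for het 1, 2, 3, 5 and 6. The hom tumours ran from 3.08 (hom 6) to 10.6 (hom 4), with a median of 7.08. All groups overlapped, and the tumours with the highest Reg1 of the large intestinal set were wt 2 and wt 1. The small intestinal het 4 exceeded every one of them with 129 CPM. Its other members were within the range of the 17 (84.3 CPM of Reg3a, 1873 of Reg3b, 424 of Reg3g and 348 of Reg4). The wt mean of 25.4 ± 27.0 (SD, n = 6) became 10.7 ± 6.14 (n = 4) without wt 1 and wt 2, beside 10.5 ± 6.56 (n = 5) in het and 7.36 ± 2.83 (n = 6) in hom.

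Reg4 is a secretory cell lectin. Wt tumours ranged from 124 CPM (wt 5) through a median of 319 to 581 (wt 6). The het values were 253, 241, 195, 276 and 615 CPM for het 1, 2, 3, 5 and 6. The hom tumours lay between 208 (hom 6) and 431 (hom 2) with a median of 286. Het 6 stood above the other het tumours, and the hom range lay inside the range of wt. The means, 327 ± 191 (SD, n = 6), 316 ± 170 (n = 5) and 295 ± 79.1 (n = 6), differed by less than any of their SDs.

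Reg2, a pancreatic member, had 3 counts in all 17 tumours, 1 each in wt 2, wt 6 and hom 4, and 0 in het 4. Its levels were at or under the limit of 3 counts that a count of 0 allows (up to 0.278 CPM in wt 3, where that limit is highest, counting error only), and no fold change is given. Reg3d, the family gene of the cluster that is not among the 6, had 36 counts in the 17 tumours, with a maximum of 7 in hom 2.

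**Figure D1:**
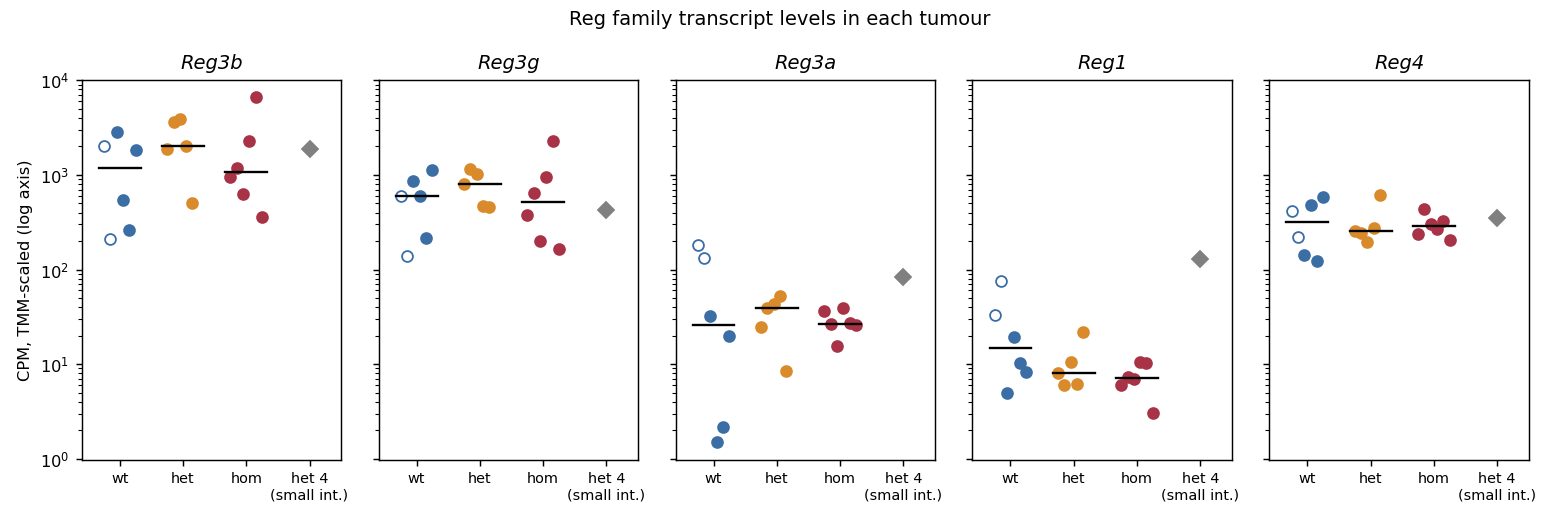
Each panel plots 1 of the 5 abundant Reg genes as TMM-scaled CPM on a log axis by Macrod2 genotype. Each point is 1 tumour, open circles are wt 1 and wt 2, grey diamonds are the small intestinal het 4 and lines are group medians. All genotype ranges overlap, and the Reg1 and Reg3a maxima of the wt group are the open circles.

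Genes were compared with each other per length, as the authors' RPKM, which are reads scaled by gene length and by TMM library size. Over the 17 tumours the median was 2401 RPKM for Reg3b, 772 for Reg3g, 259 for Reg4, 32.1 for Reg3a, 10.8 for Reg1 and 0 for Reg2. Reg3b stood at a median rank of 5 among the 14271 genes by RPKM, was first of all in het 2 and fell to rank 298 in wt 2. The median ranks were 57 for Reg3g, 234 for Reg4, 2809 for Reg3a and 6427 for Reg1. Neighbours in this order overlapped in range except Reg1 and Reg2. Within a tumour the order was steadier: Reg3b exceeded Reg3g in 16 of 17 tumours (mean log2 ratio 1.19 ± 0.66, SD), the exception being wt 4. Reg3g exceeded Reg4 in 14 of 17 (1.35 ± 1.14), Reg4 exceeded Reg3a in 17 of 17 (3.26 ± 1.92) and Reg3a exceeded Reg1 in 14 of 17 (1.13 ± 1.93). The last difference was smaller than its own spread.

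The 3 Reg3 genes made up 66.0% (wt 2) to 97.3% (hom 5) of the summed RPKM of the members, with a median of 88.1%. Reg4 supplied most of the rest, from 2.63% in hom 5 to 31.7% in het 6 (median 11.5%). The tumour with the least Reg3b relative to Reg3g was wt 4 (RPKM ratio 0.918) and the one with the most was het 5 (4.37, median 2.42). The balance of the minor pair was wider, since the RPKM ratio of Reg1 to Reg3a ran from 0.128 in hom 6 to 14.2 in wt 4. In total the members took 618 CPM in wt 5 and 9248 CPM in hom 5.

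**Figure D2:**
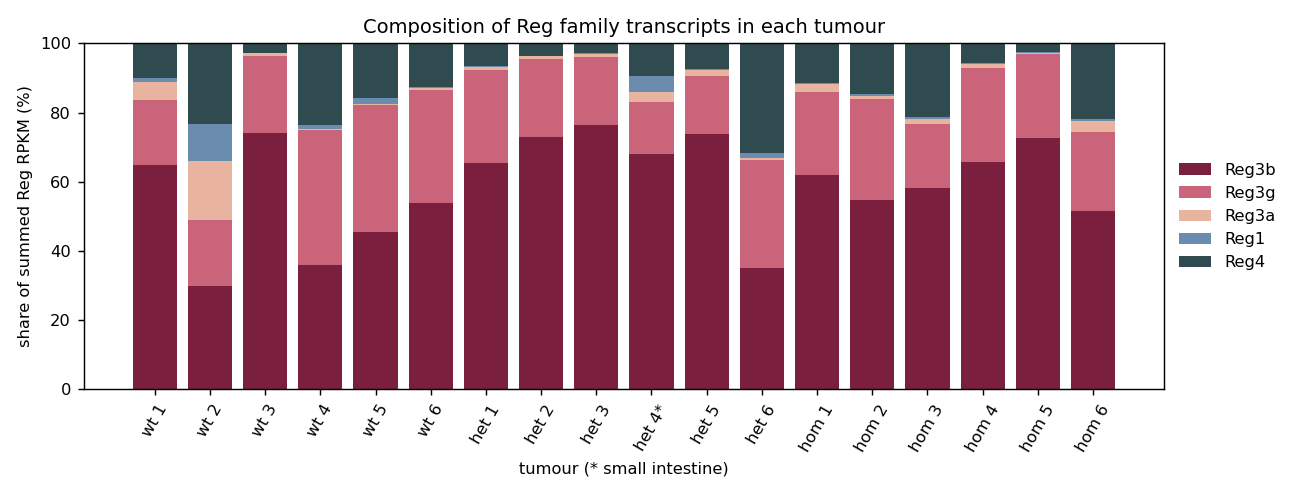
Stacked bars give each Reg gene's share, in percent, of the summed Reg RPKM of a tumour, with tumours ordered by genotype and the small intestinal het 4 marked by a star. Reg3b is the largest member in 16 of 17 large intestinal tumours, and the Reg4 share is greatest in het 6 at 31.7%.

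No member passed the adjusted threshold of 0.05 in any contrast of genotypes. In het against wt, 0 of 5 members passed edgeR's quasi-likelihood test with Benjamini-Hochberg adjustment, where 0% of the 14271 genes passed. In hom against wt it was 0 of 5 beside 0.00701% of genes, and in hom against het 0 of 5 beside 0.00701%. The 1 gene that passed in each of the latter contrasts was Macrod2 itself, lower in hom by log2 values of -4.49 (SE 0.43, adjusted p 0.000117) and -3.69 (SE 0.44, adjusted p 0.00233). DESeq2 and limma-voom also called 0 of 5 members in each contrast. Of the 14271 genes, DESeq2 called 0, 22 and 1 and limma-voom 0, 1 and 1 in het against wt, hom against wt and hom against het. By edgeR at an unadjusted p under 0.05, 1 of 5 members (Reg1) passed in het against wt, 1 of 5 (Reg1) in hom against wt and 0 of 5 in hom against het, where 2.85%, 16% and 2% of all genes did.

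Reg1 had the largest estimated differences. It was lower in hom than in wt by a log2 difference of -1.85 (SE 0.58, 95% interval -3.08 to -0.62, unadjusted p 0.005656, edgeR adjusted p 0.2576). It was lower in het than in wt by -1.33 (SE 0.61, adjusted p 0.9995). These estimates rested on wt 1 and wt 2. Without wt 1 and wt 2 they were -0.53 (SE 0.42, adjusted p 0.4221) and -0.03 (SE 0.44, adjusted p 0.9854), and leaving out wt 2 alone moved hom against wt to -1.06. The summed level of the 17 small intestinal epithelial markers was 40978 CPM in wt 1 and 57000 in wt 2. Over all groups it was 583 to 57000 in wt, 3605 to 23934 in het and 4531 to 28581 in hom, and none of its genes was at 0 in all tumours. The 11 mast cell and eosinophil markers in the table summed to 40.8 to 8088 CPM in wt (the highest in wt 2, with 134 in wt 1), 57.1 to 1713 in het and 47.3 to 249 in hom. None of these 11 was at 0 in all tumours. All 9 of those tested had lower estimates in hom than in wt (median log2 fold change -3.55, and -2.09 without wt 1 and wt 2, beside -0.03 over all genes). 0 of 9 passed after adjustment by edgeR, DESeq2 or limma-voom and 8 of 9 had an unadjusted edgeR p under 0.05, beside 16% of all genes. The part of these marker lists in the Reg1 difference was not tested beyond leaving wt 1 and wt 2 out.

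Reg3a changed the sign of its estimate with the same 2 tumours. The sign changed with the tool too, since limma-voom gave positive estimates in both contrasts with wt while all 17 tumours were kept. By edgeR with all 17 tumours the estimate was -1.16 (SE 0.84, adjusted p 0.4751) in hom against wt and -0.92 (SE 0.88, adjusted p 0.9995) in het against wt. Without wt 1 and wt 2 it was 1.05 (SE 0.69, 95% interval -0.43 to 2.53, adjusted p 0.3365) and 1.29 (SE 0.72, interval -0.24 to 2.82, adjusted p 0.6242). Neither direction was separable from 0.

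Reg3b, Reg3g and Reg4 had intervals that held 0 in every contrast. For Reg3b, hom against wt gave 0.62 (SE 0.75, interval -0.97 to 2.22, adjusted p 0.6817) and het against wt 0.89 (SE 0.78, interval -0.77 to 2.55, adjusted p 0.9995). For Reg3g the values were 0.35 (SE 0.60, adjusted p 0.7785) and 0.39 (SE 0.63, adjusted p 0.9995). The positive hom estimates of both came from 1 tumour, since without hom 5 they were -0.24 and -0.33. Without wt 1 and wt 2, hom against wt and het against wt gave 0.55 and 0.82 for Reg3b, 0.12 and 0.16 for Reg3g, and -0.16 and -0.07 for Reg4. Reg4 had the narrowest interval, -0.17 (SE 0.37, interval -0.94 to 0.60, adjusted p 0.8283) in hom against wt and -0.08 (SE 0.38, adjusted p 0.9995) in het against wt. As a ratio of hom to wt the Reg4 interval ran from 0.520 to 1.51, and that of Reg3b from 0.510 to 4.65. The hom against het estimates ran from -0.51 (Reg1, SE 0.59) to -0.04 (Reg3g, SE 0.63), each with an adjusted p of 0.9998.

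**Figure D3:**
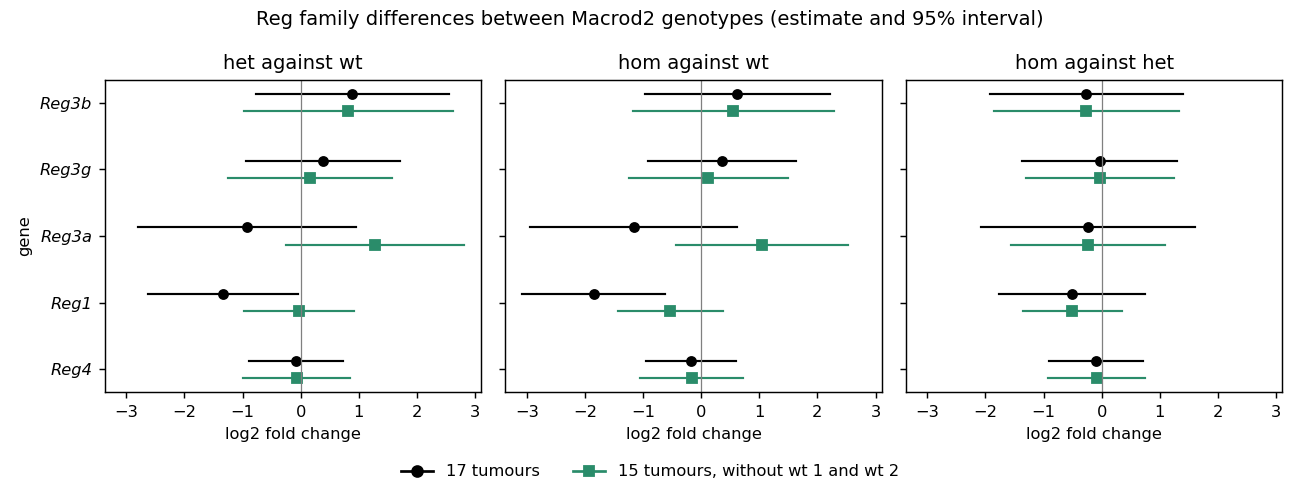
The plot gives the log2 fold change of each Reg gene in the 3 genotype contrasts. The 95% intervals were derived from edgeR's test statistic, in black for 17 tumours and in green for the 15 tumours without wt 1 and wt 2. Reg1 in hom against wt moves from -1.85 to -0.53 and Reg3a in hom against wt from -1.16 to 1.05.

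The members varied far more between tumours of the same genotype than most genes. The within-genotype SD of log2(CPM + 1) was 1.67 for Reg3a, 1.45 for Reg3b, 1.15 for Reg3g, 0.95 for Reg1 and 0.70 for Reg4, against a median of 0.29 over the 14271 genes. Only 0.673%, 1.06%, 1.93%, 3.17% and 6.52% of genes had a larger SD than these members, in that order. The added 1 shrinks the SD of genes at low CPM. By edgeR's dispersion, which allows for level, 1.44%, 2.24%, 4.23%, 4.98% and 14.6% of genes lay above them. Without wt 1 and wt 2 the SD was 1.15 for Reg3a, 1.41 for Reg3b, 1.12 for Reg3g, 0.65 for Reg1 and 0.73 for Reg4. Reg3a and Reg1 thus lost part of their spread with those tumours while Reg3b, Reg3g and Reg4 kept nearly all of it.

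Reg3b and Reg3g varied together. Over the 15 tumours without wt 1 and wt 2 their Spearman rho was 0.854 (permutation p 0.00016, adjusted over 10 member pairs 0.0016). On log2(CPM + 1) Pearson's r was 0.881 (permutation p 3e-05, adjusted 0.0003). It stayed at 0.817 when wt 5 and hom 6, the tumours farthest from the median of Reg3b, were left out. With genotype means removed r was 0.904, and among the 6 hom tumours the ranks of both genes were identical. Reads from their shared 35 bases could add to both genes, and this was not tested.

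Reg3a followed Reg3b less closely, with a rho of 0.732 (permutation p 0.0029, adjusted 0.0145) and an r of 0.686 (permutation p 0.00282, adjusted 0.0141). Without wt 4 and wt 5 the r was 0.565. Over all 17 tumours the rho of this pair was 0.451 (adjusted permutation p 0.355), and wt 2 combined the second highest Reg3a with the lowest Reg3b. The other 8 pairs did not pass, with rho from -0.346 (Reg3a with Reg4) to 0.482 (Reg1 with Reg4). Reg3a with Reg3g, which lie in the same cluster with Reg2 and Reg1 between them, had a rho of 0.407 (adjusted p 0.331), and Reg3b with Reg4 one of -0.10 (adjusted p 0.804).

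**Figure D4:**
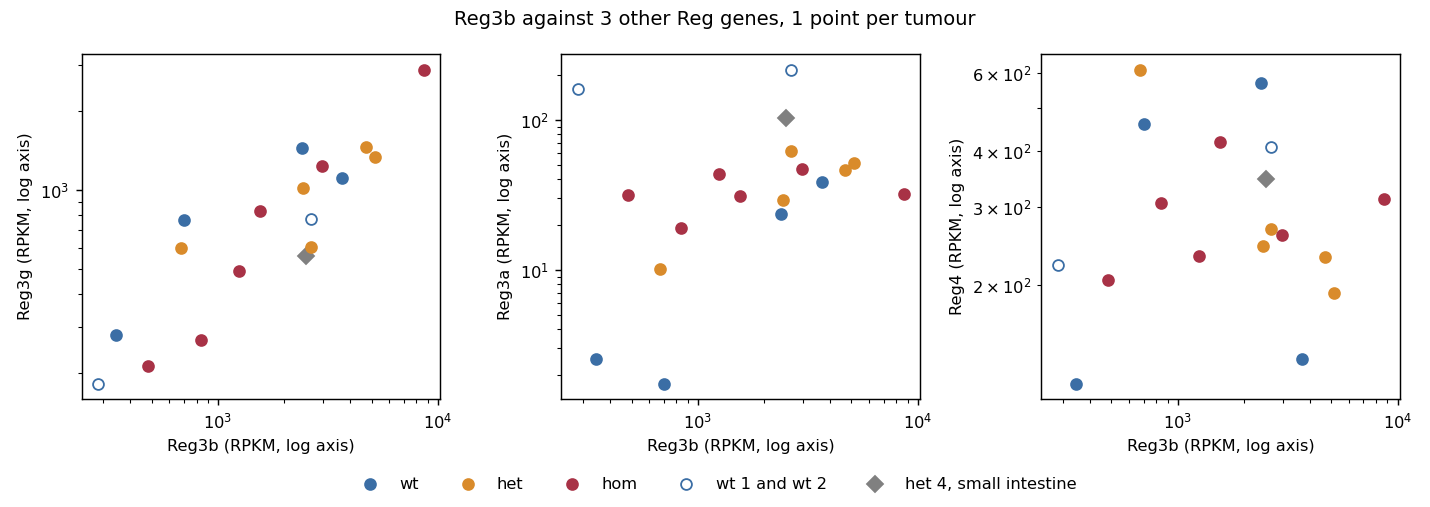
Pairs of Reg genes are plotted against each other (Reg3b on x; Reg3g, Reg3a and Reg4 on y) on log axes of the authors' RPKM, 1 point per tumour coloured by genotype, with wt 1 and wt 2 as open circles and het 4 as a grey diamond. Reg3b and Reg3g lie along a line (rho 0.854 over 15 tumours), while wt 1 and wt 2 sit off the trend of Reg3a and Reg3b.

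Of the cytokines known to induce Reg3 genes, those of the interleukin-22 and interleukin-17 type were almost without counts. Il22 had 0 counts in all 17 tumours and Il17a 8 counts in all. Il18, an epithelial cytokine, was the most abundant of the list, with 18.9 to 54.8 CPM, and is named here for that. Il11, an epithelial and stromal cytokine acting through STAT3, ranged from 7.07 to 41.4 CPM (median 17.3). Il1b ranged from 4.06 to 13.6 CPM, and Il6 from 0.290 to 4.12. Of 14 cytokines listed, 13 were in the table and 8 were tested. None passed in any contrast by edgeR, DESeq2 or limma-voom. Over all genes, 2.85%, 16% and 2% had an unadjusted edgeR p under 0.05 in het against wt, hom against wt and hom against het. Of the 8 cytokines, 0, 1 and 0 did. That 1 was Il6, at -1.16 in hom against wt (SE 0.41, adjusted p 0.2611; -1.30 without wt 1 and wt 2). The median log2 fold change of the list in hom against wt was -0.28 (-0.42 without them), beside -0.03 over all genes.

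The receiving side was expressed in every tumour. Il22ra1, the epithelial subunit of the interleukin-22 receptor, held 38.3 (wt 4) to 206 CPM (hom 6). Il6st, the shared gp130 receptor chain, held 43.1 to 114 CPM and Stat3 163 to 290. Socs3, a STAT3 target that feeds back on the receptors, held 54.8 to 102. Of 17 receptor and STAT3 pathway genes 16 were tested, and 0 passed in any contrast by any of the 3 tools. At an unadjusted edgeR p under 0.05, 0 of 16 passed in each contrast. The shares of all genes were 2.85%, 16% and 2% in het against wt, hom against wt and hom against het. The median log2 fold change of these 16 was 0.01 in het against wt, 0.03 in hom against wt and 0.03 in hom against het. The corresponding medians over all genes were -0.03, -0.03 and -0.01. Extl3, reported as a receptor of Reg proteins, stayed within 58.7 to 82.0 CPM. Egfr, a reported partner of Reg4 signalling, ranged from 35.6 to 129 CPM. Neither Extl3 nor Egfr passed in any contrast by any of the 3 tools. Of these 2, Egfr had an unadjusted edgeR p of 0.04999 in hom against het, where 2% of all genes were under 0.05.

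Other epithelial defence genes did not pass either. Of 25 listed, 22 were tested and 0 passed in any contrast by edgeR, DESeq2 or limma-voom. At an unadjusted edgeR p under 0.05 there were 1 of 22 in het against wt, 3 of 22 in hom against wt and 0 of 22 in hom against het, beside 2.85%, 16% and 2% of all genes. Retnlb, a goblet cell lectin-like bactericidal protein, was that 1, at 1.17 in het against wt (SE 0.45, adjusted p 0.9995; 1.04 without wt 1 and wt 2). Pigr, the receptor that carries secretory IgA, had -0.66 in hom against wt (SE 0.31, adjusted p 0.3114; -0.36 without wt 1 and wt 2). The other two, named after their values were seen, were Lypd8, which keeps flagellated bacteria from the colonic epithelium, at 0.91 (SE 0.35, adjusted p 0.2723; 0.92 without them) and Nod2, a sensor of bacterial muramyl dipeptide, at -0.64 (SE 0.24, adjusted p 0.264; -0.80 without them). The list medians were -0.08, -0.05 and -0.11 (0.09, -0.20 and -0.11 without wt 1 and wt 2), beside -0.03, -0.03 and -0.01 over all genes. Lcn2, an iron-withholding defence protein, spanned 98.7 to 628 CPM and Nos2, the inducible nitric oxide synthase, 1.28 to 58.0, with the highest Nos2 in hom 5, the tumour with the most Reg3b.

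The 26 pathway and marker genes came from lists chosen with earlier results of these data known, which the permutation p-values do not allow for. Across the 15 tumours they were set against the 5 abundant members, which gave 130 relations. None passed on Spearman's rho after adjustment over the 130, and 4 passed on Pearson's r of log2(CPM + 1). Over all 17 tumours 3 passed on rho and 5 on r. Those on r, besides the Reg4 relations below, were Reg1 with Fabp6 (r -0.86, adjusted permutation p 0.00217), Reg3a with Chga (0.794, adjusted 0.00942) and Reg3a with Il22ra1 (0.715, adjusted 0.0356). Over the 15 tumours these r were -0.670 (adjusted permutation p 0.0837), 0.655 (0.106) and 0.750 (0.0524). Reg4 followed the goblet cell genes Spink4 (rho 0.804, permutation p 0.00047, adjusted 0.0572; r 0.898, permutation p 2e-05, adjusted 0.00195) and Muc2 (rho 0.746, adjusted permutation p 0.063; r 0.803, adjusted 0.00737). Without het 6 and wt 6 these r were 0.909 and 0.763, and over all 17 tumours the rho were 0.828 (adjusted permutation p 0.0195) and 0.777 (adjusted 0.0347). The other goblet and deep crypt secretory markers were less close to Reg4 over the 15 tumours (rho, no test). Spdef had 0.671, Galnt12 0.636, Agr2 0.596, Clca1 0.564, Atoh1 0.496 and Tff3 0.414. Cd177 had -0.004, Fcgbp -0.018 and Zg16 -0.029. Reg3g ran with Pigr (rho 0.786, adjusted permutation p 0.0572; r 0.768, adjusted 0.0214, and 0.789 without hom 6 and hom 5), but over all 17 tumours r was 0.354 (adjusted permutation p 0.426). Reg3a ran with the ileal Fabp6 (rho 0.754, adjusted permutation p 0.063; r 0.955, adjusted 0.00195, and 0.820 without wt 4 and wt 5). Wt 1 and wt 2, with the highest Reg3a and the lowest Fabp6, went against that relation, and over all 17 tumours rho was 0.206 (adjusted permutation p 0.692) and r 0.00623 (adjusted 0.989). Reg3b with Stat3 had a rho of 0.436 (adjusted permutation p 0.373) and Reg3g with Il1b 0.718 (adjusted 0.0747), the latter 0.755 over all 17 tumours (adjusted permutation p 0.0347).

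Marker lists of cell types that can hold Reg transcripts gave these levels. The 10 Paneth cell markers in the table summed to 1243 to 4825 CPM in wt, 1627 to 3996 in het and 1994 to 4254 in hom, with Lyz1, the Paneth lysozyme, the most abundant (552 to 2702 CPM). The 11 goblet and deep crypt secretory markers summed to 1595 to 8756, 2994 to 6227 and 5140 to 6525 CPM. The 12 enteroendocrine markers summed to 23.9 to 271, 62.3 to 125 and 69.4 to 129 CPM. No member of these 3 lists passed in any contrast by any of the 3 tools. At an unadjusted edgeR p under 0.05, 2 of 10 Paneth markers (Defa21 and Defa22) passed in each contrast with wt (beside 2.85% of all genes in het against wt and 16% in hom against wt), 0 of 11 goblet markers in any contrast and 1 of 12 enteroendocrine markers in each (Gip, Tph1 and Neurod1 in turn, named after their values were seen). In hom against het, 2% of all genes had such a p. For Defa21 and Defa22, near-identical defensin copies make single counts uncertain.

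Pancreatic acinar cells are a rich source of Reg1 and Reg2. Of 20 acinar markers 7 were at 0 in all 17 tumours, among them the trypsinogen gene Prss1 and the acinar transcription factor gene Rbpjl. Cpa1, the acinar carboxypeptidase, had 2 counts in all. The summed list was 143 to 396 CPM in wt, 182 to 264 in het and 165 to 271 in hom. The 3 tumours with the highest Reg1 also had the highest sums, 406 CPM in het 4, 396 in wt 1 and 324 in wt 2, against at most 278 in the other 15. Cela1, which intestinal tissue also expresses, was the most abundant gene of the list (mean 157 CPM) and in those 3 tumours lay within the range of the others (155 in wt 1, 141 in wt 2 and 168 in het 4, against 111 to 221 in the other 15). Pnliprp1, a lipase-related gene named after its values were seen, was higher there, with 206 CPM in wt 1, 155 in wt 2 and 205 in het 4 against 12.2 to 89.2. Within the other 15 tumours, rho of Reg1 was -0.211 with Pnliprp1, 0.0143 with Cela1, 0.307 with Bhlha15 and 0.411 with Clps (no test). These were the 4 acinar markers that passed the filter. The part of these genes in the Reg1 levels was not tested.

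The genes most like each member were ranked by rho over the same 15 tumours among 12662 genes with a mean of at least 1 CPM. These values describe likeness and carry no test. For Reg3b the nearest were Ggn (0.879), Batf2 (0.864), an interferon-induced transcription factor gene, and B3galt5 (0.846), a galactosyltransferase gene. B3galt5 was also the nearest to Reg3g (0.879), followed by Il15ra (0.839), the interleukin-15 receptor chain, and Zbp1 (0.825), a sensor of Z-form nucleic acid. Reg3a was nearest to Apol10a (0.893), Camta2 (0.893) and BC089597 (0.886). For Reg4 the highest were Nt5c3 (0.936), a nucleotidase gene, Kdelr3 (0.904), a receptor that returns proteins to the endoplasmic reticulum, and Dennd2d (0.900). Reg1 had the lowest top values, with Atp5a1 (0.832), an ATP synthase subunit gene, Tmem186 (0.818) and Tmem39b (0.811).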

How the data were processed

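RNA was sequenced from 18 tumours, 1 per mouse, and grouped by the genotype in the labels. Per the submitters' processing notes, the reads were trimmed (Trimmomatic), placed on mm10 (TopHat) and counted per gene by featureCounts (Subread 1.4.5-p1). The strand setting is not given in the sources used here. The kit named is for stranded total RNA, while the labels call the molecule polyA RNA. The deposited counts are raw reads per gene, and the deposited RPKM values were scaled by the authors with TMM factors. RPKM served only for levels between genes.

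The counts were tested with edgeR 4.0.16 in R 4.3.3 (filterByExpr, TMM, robust quasi-likelihood fit of 17 tumours, no covariates, Benjamini-Hochberg adjustment over 14271 genes, threshold 0.05). DESeq2 1.42.0 and limma 3.58.1 (voom) were alternatives, beside another normalization, no filter, 2 genotypes alone, Rn45s left out, het 4 included, a replicate block, each tumour left out in turn, and sets of tumours left out. Correlations used CPM (Spearman) or log2(CPM + 1) (Pearson) with 1e+05 permutations, two-sided. The fits were tested on simulated data with fold changes planted in sampled genes. Over the contrasts, 19.4% to 20.9% of 1.5-fold changes, 56.7% to 61.2% of 2-fold and 87.9% to 95.5% of 4-fold were recovered. Recovery was not measured for the members alone, which varied more than most genes. No library pair agreed within sampling noise (chi-square per degree of freedom at least 17.7). The p-values measure the spread between mice, 1 tumour each.

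Named genes were the 6 members, 3 genes nearest to each abundant member by rho (predicted genes left out), and a fixed set from gene lists of the pathway and of cell types. The members and lists were chosen with earlier results of these data known.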

Additional observations from a re-analysis of the deposited data

Results flagged for a closer look

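By a gap rule on unlogged CPM, 3 of the 15 member and genotype groups held 1 tumour far from the rest. The rule flags about 1 in 20 groups when values are normal and groups independent. CPM here were skewed and the groups shared tumours, so that rate does not apply and no excess over chance can be read. Reg1 in het 6 (21.8 CPM) was separated from the next het tumour by 0.715 of the group's range, above the limit of 0.71 for 5 tumours. Reg4 in the same tumour, het 6 (615 CPM), was separated by 0.8078 of the range. That tumour also had the lowest Reg3b, Reg3g and Reg3a of the het group. Reg3b in hom 5 (6631 CPM) was separated by 0.6949 of the range, above the limit of 0.625 for 6 tumours.

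The small intestinal tumour het 4, which entered no comparison, held 129.4748 CPM of Reg1, more than any of the 17 tumours labelled large intestinal. The highest of these was wt 2 at 76.4, which had a Gata4 level like that of het 4.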

How the results depend on the processing

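Of 420 fold change estimates under alternatives (15 member and contrast pairs), 387 kept their direction, 33 reversed and 0 passed the adjusted threshold. The lowest adjusted p was 0.0853, for Reg1 in hom against wt with DESeq2. The cause of the moves was not tested.

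With limma-voom, Reg3a became 0.59 in het against wt and 0.55 in hom against wt, and Reg4 0.0433 and 0.0372. Without wt 1 and wt 2, Reg3a became 1.29 and 1.05. Leaving out het 6 as well gave Reg3a 1.53 and 1.05 and Reg4 0.29 in hom against het. Leaving out wt 3 in its place gave Reg3a 2.10 and 1.87. These last sets were chosen after seeing the data. With het 4 included, Reg1 in het against wt became 0.25 and Reg3g in hom against het 0.0895. Leaving out each tumour in turn, Reg4 ran from -0.44 to 0.19 in het against wt, -0.32 to 0.0938 in hom against wt and -0.24 to 0.29 in hom against het. In the same way Reg3b ran from -0.24 to 1.05 in hom against wt and -1.14 to 0.00045 in hom against het, and Reg3g from -0.33 to 0.66 and -0.73 to 0.19.

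The count of genes called in hom against wt was 22 with DESeq2, 1282 without wt 1, wt 2 and wt 3, and 1 to 2 with each tumour left out in turn. In hom against het it was 0 when fitted with those genotypes alone. Over all 17 tumours the rho of Reg1 and Reg3a became 0.0907, that of Reg1 and Reg3g -0.0294 and that of Reg3a and Reg3b 0.451. The relations with pathway genes over 17 tumours, given beside the report's values, were added after seeing the data.

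The replicate numbers did not pair the tumours: 16 same-numbered pairs correlated at -0.452 to 0.325, 4 of them over 0.1, and 1 of 17 tumours correlated best with its own number. A replicate block called 0 genes in het against wt, 2 in hom against wt and 0 in hom against het. It gave Reg4 0.0252, 0.0575 and 0.0323 in those contrasts.

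Depth limits Reg2, where 3 counts allow no comparison. For the other members, with at least 4136 counts each over the 17 tumours, the intervals above reflect the spread between 5 or 6 tumours a group.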
